A study of Mus musculus with 4 samples.

Results

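The miR-26 family comprised 5 of the 1915 mature mouse miRNAs in the deposited table, namely both strands of miR-26a and miR-26b, and the members were chosen by name. The libraries were 2 of MIN6 cells and 2 of exosomes from their conditioned medium. MIN6 is an insulin-secreting line from a mouse insulinoma, and exosomes are small vesicles that cells release. The cells were grown with exosome-depleted serum, no library carried a treatment, and the exosomes were pelleted by ultracentrifugation. The comparison of exosomes with their parent cells asked which miRNAs the vesicles carry.

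Each of the 3 miR-26 genes lies in an intron of a gene for a small phosphatase of the Ctdsp group, whose proteins act on the C-terminal domain of RNA polymerase II. A miRNA hairpin is cut into a 5p and a 3p strand. For miR-26 the 5p strand is the main one, which guides Argonaute to messenger RNAs through its seed, and the 3p strand is the passenger that is mostly degraded. miR-26 is found in most tissues, is known to repress Ezh2, and in the pancreas has been described as a repressor of Tet enzymes.

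The sequences of all 5 members matched RefSeq (GRCm38.p6) and are shown because the pairs that the counts must tell apart differ at few bases. Capitals mark the seed, bases 2 to 8.
mmu-miR-26a-5p: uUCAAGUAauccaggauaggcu
mmu-miR-26b-5p: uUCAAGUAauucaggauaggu
mmu-miR-26a-1-3p: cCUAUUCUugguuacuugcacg
mmu-miR-26a-2-3p: cCUGUUCUugauuacuuguuuc
mmu-miR-26b-3p: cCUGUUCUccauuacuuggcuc
Both 5p strands shared the seed UCAAGUA, which no other mature miRNA of the table with a known sequence had. From miR-26a-5p to miR-26b-5p the differences were C11U and C21U, with positions counted from 1 at the 5′ end, and miR-26b-5p is the shorter strand, with 21 bases against 22. The passenger strands diverged more, and 16 of 22 bases were identical between miR-26a-1-3p and miR-26a-2-3p. The seed CUGUUCU was shared by miR-26a-2-3p and miR-26b-3p, whereas that of miR-26a-1-3p was CUAUUCU. The seed CUGUUCU was also that of miR-6932-3p and miR-7039-3p, which had no count in any library.

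The hairpins are given with both strands in capitals, since reads outside the capitals are described below.
mir-26a-1: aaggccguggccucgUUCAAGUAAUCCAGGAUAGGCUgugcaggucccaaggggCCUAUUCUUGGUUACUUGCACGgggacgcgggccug
mir-26a-2: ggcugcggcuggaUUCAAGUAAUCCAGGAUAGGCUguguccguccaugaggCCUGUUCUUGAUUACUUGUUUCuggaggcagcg
mir-26b: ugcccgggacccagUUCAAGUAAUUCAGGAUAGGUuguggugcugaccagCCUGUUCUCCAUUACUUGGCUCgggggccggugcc
On GRCm38, Mir26a-1 lies on the plus strand at chr9:119031796-119031885, in intron 5 of Ctdspl, which spans 3283 bases in a transcript of 8 exons. Mir26a-2 lies at chr10:126995530-126995613, in intron 5 of Ctdsp2, of 1946 bases in a transcript of 8 exons. Mir26b lies at chr1:74394310-74394394, in intron 4 of Ctdsp1, of 564 bases in a transcript of 7 exons. All 3 host genes run on the same strand as the hairpin. Because mir-26a-1 and mir-26a-2 give the same 5p strand, the count of miR-26a-5p cannot be divided between Ctdspl and Ctdsp2. The 3p strands are the ones that separate both loci.

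The libraries differed in depth, with 2930217 and 2564068 mature miRNA reads in the cells against 47447 and 31409 in the exosomes. Here 3 counts per library, taken as the floor below which a miRNA was not detectable, were 1.02 and 1.17 RPM (reads-per-million of the mature miRNA reads) in the cells against 63.2 and 95.5 RPM in the exosomes. Intervals and floors cover counting error only. The labels do not say whether the libraries of a group came from separate cultures, so p-values measure only the spread between these libraries. The 8 beta-cell marker miRNAs, miR-375-3p among them, were all counted in the cells, and their summed level was 53834 and 55067 RPM there against 24090 and 9456 RPM in the exosomes. The 6 blood-cell miRNAs summed to 2.73 and 3.12 RPM in the cells against 7503 and 2101 RPM in the exosomes, and miR-451a, the defining erythroid miRNA, had no count in the cells. The 2 liver miRNAs summed to 4.44 and 8.19 RPM in the cells against 1728 and 2038 RPM in the exosomes. The 6 of fibroblasts, muscle and endothelium summed to 45.4 and 45.6 RPM in the cells against 2150 and 2133 RPM in the exosomes. The striated-muscle markers of that list were at or under the floor in the exosomes. miR-1a-3p had 3 and 0 reads there against 47 and 29 in the cells, and miR-133a-3p had no count in any library. The 3 markers of exocrine pancreas had no count in any library. The part of these other miRNAs in the miR-26 results was not tested.

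The miR-26 family was a small part of the cell's miRNA and a smaller one of the exosomes'. Its 5 members together took 0.163% and 0.158% of the mature reads in the cells against 0.0948% and 0.0796% in the exosomes. In the exosomes these were 45 and 25 reads, all on the 5p strands. Both main strands had lower values in the exosomes, with calls that rested on the scaling, and no passenger strand was counted there. miR-26b-5p had the lower fitted value, but the fitted intervals of both strands overlapped.

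miR-26a-5p, the strand made from Ctdspl and Ctdsp2, had 2172 and 1786 reads in the cells against 25 and 19 in the exosomes. These were 741 and 697 RPM in the cells against 527 and 605 RPM in the exosomes. The exosome values were below those of either cell library, but their 95% Wilson intervals (357 to 778 and 387 to 945 RPM) took in the level of the cells.

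miR-26b-5p, the strand made from Ctdsp1, had 2216 and 1914 reads in the cells against 20 and 6 in the exosomes. These were 756 and 746 RPM in the cells against 422 and 191.03 RPM in the exosomes. The groups did not overlap, and the Wilson intervals of the exosome libraries (273 to 651 and 87.6 to 417 RPM) ended below the level of the cells. In the cells both main strands stood at nearly the same level, 719 ± 31.6 RPM for miR-26a-5p and 751 ± 6.92 RPM for miR-26b-5p (SD, n = 2). In the exosomes the corresponding levels were 566 ± 55.2 and 306 ± 163 RPM (SD, n = 2).

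**Figure D1:**
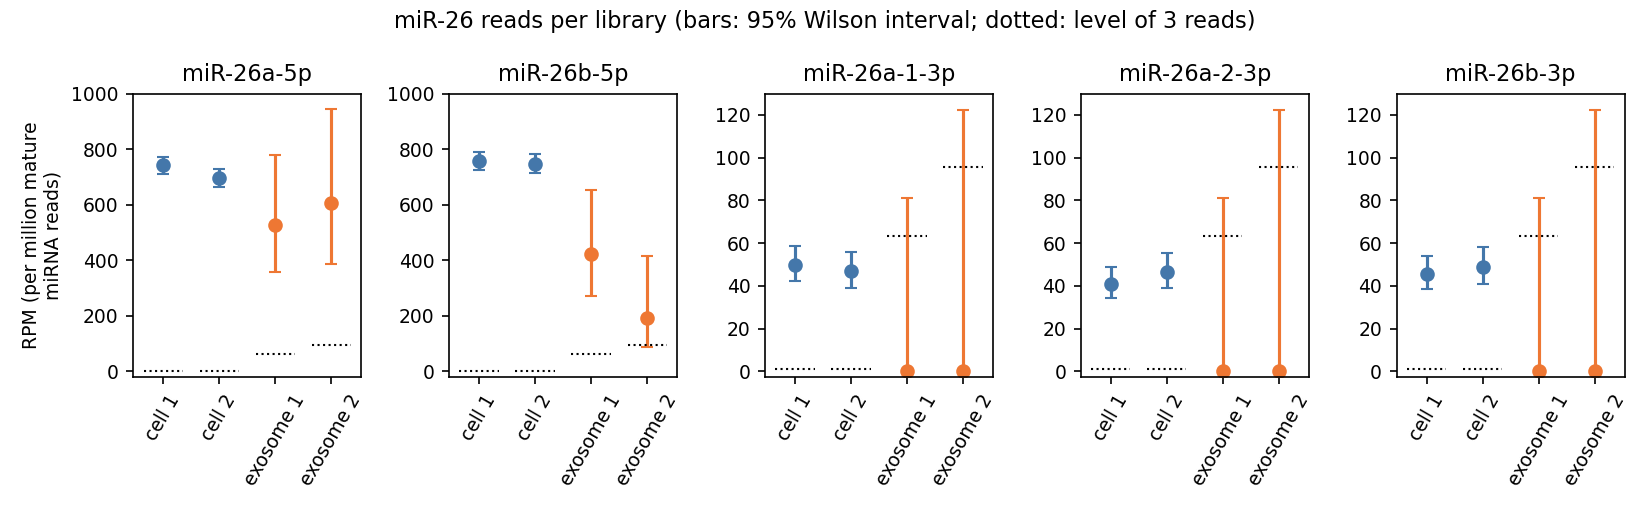
RPM of each miR-26 strand in each library, with 95% Wilson intervals as bars and the level of 3 reads as dotted lines; the scale of the 3p panels differs from that of the 5p panels. Both 5p strands lay lower in the exosomes, at 527 and 605 RPM for miR-26a-5p and at 422 and 191.03 RPM for miR-26b-5p, and the 3p strands, at 0 there, lay in the cells under the exosome floors of 63.2 and 95.5 RPM.

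On counts scaled by TMM, a factor that corrects for the composition of the library, miR-26a-5p was at 1124 and 1138 normalized CPM in the cells against 295 and 442 in the exosomes. It was thus 3.11-fold lower there, a log2 fold change of -1.64 with a standard error of 0.40 and a 95% interval of -2.72 to -0.55 (edgeR quasi-likelihood test, Benjamini-Hochberg adjusted p = 0.0315). miR-26b-5p was at 1147 and 1220 normalized CPM in the cells against 236 and 140 in the exosomes. This was 6.13-fold lower, a log2 fold change of -2.62 with a standard error of 0.44 and a 95% interval of -3.80 to -1.43 (same test, adjusted p = 0.0143). Thus, both main strands passed the test, by which 53.2% of the 438 tested miRNAs differed, 29.5% lower and 23.7% higher. Both also passed the rule of the study, the exactTest of edgeR at a 2-fold difference and a raw p of 0.05. It was run here on the same tested miRNAs with TMM scaling, and by it 37.9% of them were lower and 27.4% higher. The study names no filter on low counts and no scaling, and it reported more miRNAs higher than lower. These calls are therefore not those of its own analysis. Exosome values below those of either cell library were found in 51.8% of the tested miRNAs by normalized CPM and in 33.8% by RPM.

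The calls rested on the scaling. With library size alone the log2 fold change was -0.34 for miR-26a-5p (quasi-likelihood test, adjusted p = 0.567) and -1.26 for miR-26b-5p (adjusted p = 0.140), and with upper quartile scaling it was -0.91 (adjusted p = 0.166) and -1.93 (adjusted p = 0.0200). The scaling also moved the median of all tested miRNAs, which was -0.75 with TMM, -0.07 with upper quartile scaling and 0.61 with library size alone. Relative to that median, miR-26a-5p stood at -0.89, -0.84 and -0.95, and miR-26b-5p at -1.87, -1.86 and -1.86. Single libraries mattered as well. Relative to the median of the fit, miR-26a-5p was at 1.54 and miR-26b-5p at -0.18 without exosome replicate 1, and at -0.86 and -1.25 without exosome replicate 2. Without cell replicate 1 or 2 the values of miR-26a-5p were -2.26 and -2.12 (adjusted p = 0.132 and 0.168 from the quasi-likelihood test), and without exosome replicate 1 the value was -0.99 (adjusted p = 0.0170), above the median of -2.53 of all tested miRNAs in that fit. For miR-26b-5p they were -3.37 without cell replicate 1 (adjusted p = 0.0348) and -3.16 without cell replicate 2 (adjusted p = 0.0541 from the quasi-likelihood test).

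**Figure D2:**
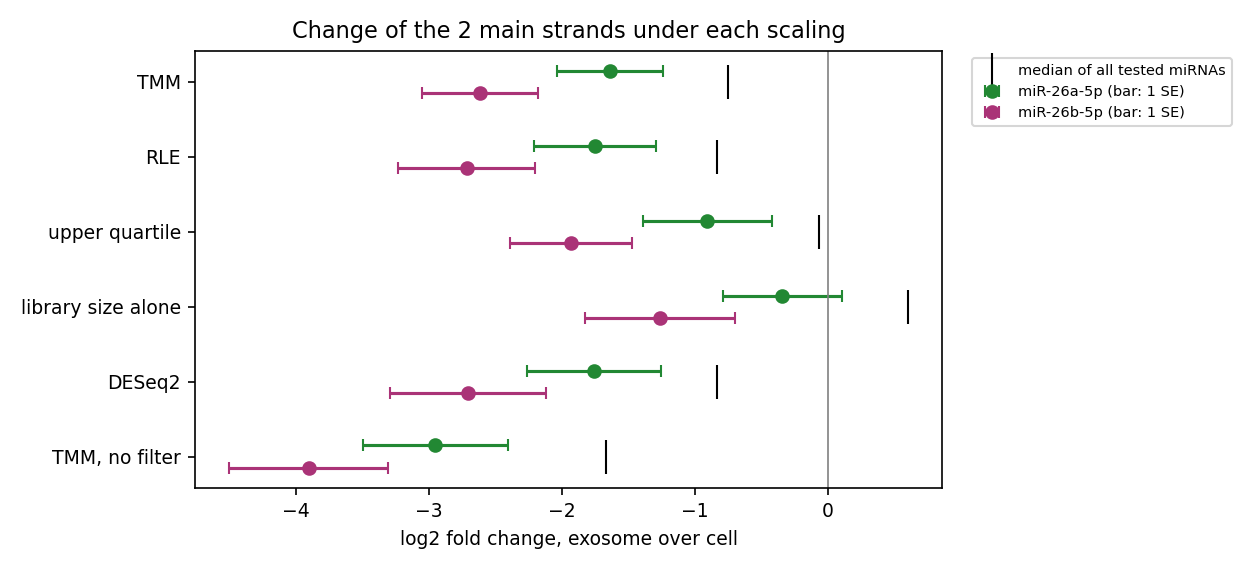
Log2 fold change of exosome over cell for miR-26a-5p (green) and miR-26b-5p (purple) under 6 analyses, with 1 standard error as the bar, and the median of all tested miRNAs as a black tick. Every value lay below 0 and below the median of its analysis, from -0.34 to -2.95 for miR-26a-5p and from -1.26 to -3.90 for miR-26b-5p.

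The balance of both main strands within a library does not depend on the scaling. miR-26a-5p made up 49.5% of the reads on both main strands in cell replicate 1 (95% Wilson interval 48.0 to 51.0) and 48.3% in cell replicate 2 (46.7 to 49.9). In exosome replicate 1 its share was 55.6% (41.2 to 69.1), and in exosome replicate 2 it was 76.0% (56.6 to 88.5). Hence only exosome replicate 2, with 25 reads on both strands, had an interval above the share in the cells. The log2 ratio of miR-26a-5p to miR-26b-5p, with 0.5 added to each count, was -0.06 ± 0.05 in the cells and 0.95 ± 0.90 in the exosomes (SD, n = 2). The groups did not overlap, but the exact two-sided permutation test gave p = 0.333, the smallest p that 2 libraries against 2 can give. The difference of 1.01 fell to 0.38 without exosome replicate 2 and rose to 1.65 without exosome replicate 1.

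The passenger strands were minor in the cells. miR-26a-1-3p, from the Ctdspl locus, had 146 and 120 reads there, miR-26a-2-3p, from the Ctdsp2 locus, had 120 and 119, and miR-26b-3p, from the Ctdsp1 locus, had 45.4 and 48.8 RPM. The 3 strands thus stood close together in the cells, at 48.3 ± 2.14, 43.7 ± 3.86 and 47.1 ± 2.38 RPM (SD, n = 2), and neighbouring means differed by no more than the larger SD. None of them had a read in either exosome library. At their level in the cells, 1.37 to 2.29 reads would fall on each in an exosome library by RPM, so a single passenger strand was not detectable at this depth and no fold is given on that scale.

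By TMM scaling each passenger strand was at least 1.31-fold to 1.44-fold lower in the exosomes, against the mean floor of both exosome libraries, 52.6 normalized CPM. In exosome replicate 2 alone the floor was 69.9 normalized CPM, so none of these bounds holds for that library. The means in the cells were 76.0 for miR-26a-1-3p and 74.2 for miR-26b-3p, little above that floor. miR-26a-2-3p, at a mean of 69.0 in the cells, was not detectable there. All 3 passed the quasi-likelihood test (adjusted p = 0.0232 to 0.0271), but they had passed the filter on low counts through the cell libraries alone, so that these calls are given as a description. They were not under 0.05 with library size alone (adjusted p = 0.0596 to 0.0657 from the quasi-likelihood test) or without exosome replicate 1 (adjusted p = 0.0542 to 0.0691), and without a cell library they were not tested. Summed over the 3 strands, the cells held 136 and 141.96 RPM, above the floors of both exosome libraries. Against the mean floor the sum was at least 1.75-fold lower in the exosomes by RPM and at least 4.17-fold lower by TMM. For exosome replicate 2 alone, with floors of 95.5 RPM and 69.9 normalized CPM, both bounds are smaller.

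Within the family, 3p reads made up 8.34% of all miR-26 reads in cell replicate 1 (95% Wilson interval 7.59 to 9.15) and 8.96% in cell replicate 2 (8.12 to 9.87). In the exosomes 0 of 45 reads in replicate 1 and 0 of 25 in replicate 2 were on a 3p strand. This allows a share of up to 6.67% and 12.0% by the floor of 3 counts, and of up to 7.87% and 13.3% by the Wilson interval. The interval of exosome replicate 1 overlapped that of cell replicate 1, and the interval of exosome replicate 2 took in the shares of both cell libraries. At the share of the cells, 3.88 of the 45 reads in exosome replicate 1 and 2.16 of the 25 in exosome replicate 2 would have been expected on 3p strands. The exact permutation test on the library shares again gave its smallest p of 0.333. In the cells the 3p share was 10.9% and 11.8% for miR-26a, whose 5p strand comes from both hairpins. It was 5.66% and 6.13% for miR-26b, with Wilson intervals that did not overlap those of miR-26a. The rule for 5p reads shared by both mir-26a hairpins is not given. If they were divided between the hairpins, the miR-26a share is overstated, so no difference between miR-26a and miR-26b is drawn from these values.

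**Figure D3:**
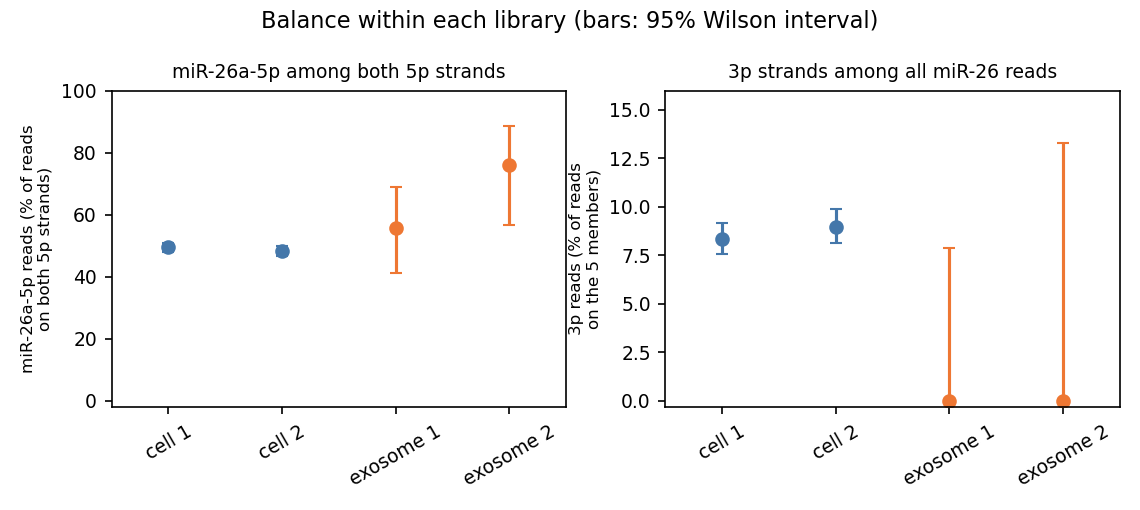
Left, miR-26a-5p as a percentage of the reads on both 5p strands; right, 3p reads as a percentage of all miR-26 reads, per library with 95% Wilson intervals. The cell libraries lay at 49.5% and 48.3% and at 8.34% and 8.96%, and the exosome libraries at 55.6% and 76.0% and at 0%.

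Reads were also counted per hairpin, with the part that lay on neither annotated strand. In the cells such reads were nearly absent from the miR-26 hairpins. Cell replicate 1 had 0 of 2318 on mir-26a-1, 0 of 2273 on mir-26a-2 and 0 of 2349 on mir-26b. Cell replicate 2 had 2 of 1908 on mir-26a-1, 1 of 1889 on mir-26a-2 and 0 of 2039 on mir-26b. In the exosomes they were seen on mir-26a-1 in both libraries, with 3 of 28 reads in replicate 1 (10.7%, 95% Wilson interval 3.71 to 27.2) and 6 of 25 in replicate 2 (24.0%, 11.5 to 43.4). On mir-26a-2 they were 0 of 25 reads in replicate 1 and 3 of 22 in replicate 2 (13.6%, 4.75 to 33.3). On mir-26b 0 of 20 and 0 of 6 reads lay outside the strands, which allows a share of up to 15.0% and 50.0%, so that a difference from mir-26a-1 was not detectable at this depth.

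Reads on neither strand were more frequent in the exosome libraries across all hairpins, at 32.8% and 42.0% of the hairpin reads against 10.9% and 9.58% in the cells. Among hairpins with at least 20 reads the median share was 0.723% and 4.56% in the exosomes and 0% in both cell libraries. The sequence of these off-strand reads was not analysed here. The 5p reads of miR-26a were listed at both of its hairpins, with 2172 on mir-26a-1 and 2153 on mir-26a-2 in cell replicate 1. Whether a read shared by both hairpins was counted at each or divided between them is not stated. The level of miR-26a-5p beside miR-26b-5p rests on such reads being counted whole.

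**Figure D4:**
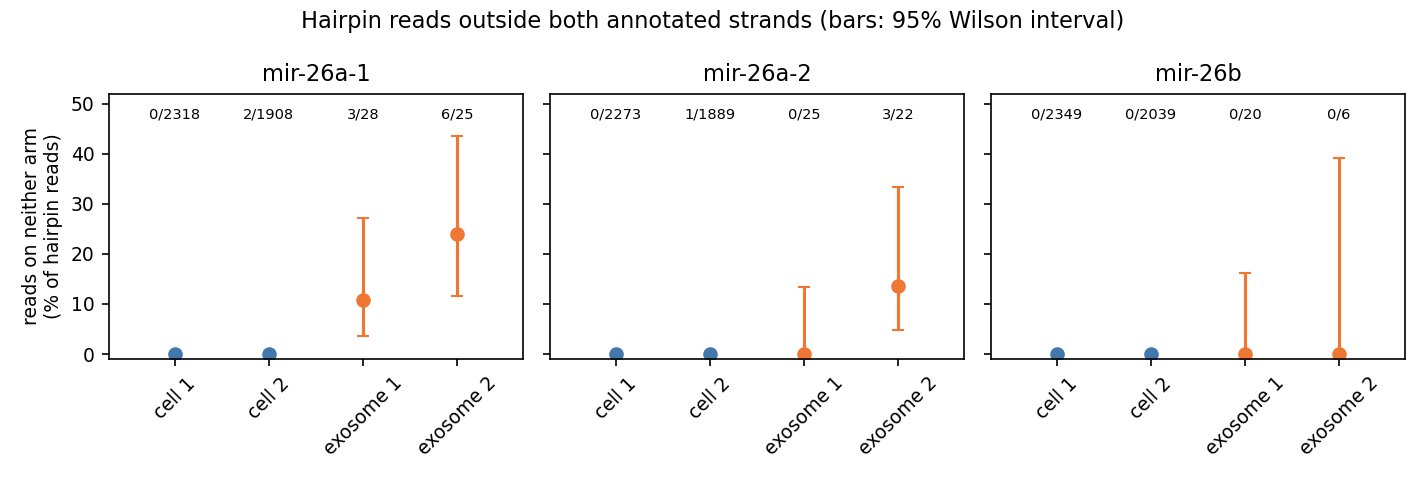
Percentage of the reads of each miR-26 hairpin that lay on neither annotated strand, per library, with 95% Wilson intervals and the counts above the points. The cell libraries lay near 0%, the exosome libraries at 10.7% and 24.0% for mir-26a-1 and at 0% and 13.6% for mir-26a-2, and all 4 at 0% for mir-26b.

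Another 2 families of miRNAs made from introns of related genes were set beside miR-26. miR-103-3p and miR-107-3p come from introns of the Pank genes, which encode pantothenate kinases, and miR-148b-3p and miR-152-3p from introns of the Copz genes, which encode coatomer subunits. miR-148a-3p shares the seed of the latter but does not come from a Copz intron. For 1 miR-103 or miR-107 read there were 3.92 and 3.82 miR-26 5p reads in the cells, but 1.25 and 3.00 in the exosomes, counted with 0.5 added. For 1 read of the miR-148 and miR-152 strands the numbers were 5.34 and 5.31 in the cells against 10.1 and 7.29 in the exosomes. With miR-148b-3p and miR-152-3p alone, a denominator chosen after seeing the data, they were 10.3 and 9.53 in the cells, 13.0 in exosome replicate 1 and 7.29 in exosome replicate 2. miR-26 thus lay lower against the Pank miRNAs in both exosome libraries, whereas against the Copz miRNAs 1 exosome library lay above and 1 below the cells. The log2 ratio to the Pank miRNAs was 1.95 ± 0.03 in the cells and 0.95 ± 0.90 in the exosomes, and that to the miR-148 and miR-152 strands was 2.41 ± 0.01 and 3.10 ± 0.33 (SD, n = 2), each with p = 0.333 in the exact permutation test, the smallest possible. The exosomes held 36 and 8 reads of the Pank miRNAs. They held only 4 and 3 reads of the miR-148 and miR-152 strands, and 3 and 3 of those from Copz introns. At these counts no difference between both families is drawn from the ratios. The log2 difference of exosomes from cells in the ratio to the Pank miRNAs was -1.64 with exosome replicate 2 left out and -0.37 with exosome replicate 1 left out, whereas that in the ratio to the miR-148 and miR-152 strands was 0.93 and 0.45. For the strands from Copz introns alone the log2 difference was -0.023 with all libraries, and it was 0.39 and -0.44 with these libraries left out.

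In the fit across all miRNAs, miR-103-3p, with 942 and 822 reads in the cells against 27 and 4 in the exosomes, was at a log2 fold change of -1.22 (95% interval -2.92 to 0.48, quasi-likelihood test, adjusted p = 0.163). miR-107-3p, at 91.1 and 92.4 normalized CPM in the cells against 106.11 and 93.1 in the exosomes, was at 0.14 (-0.85 to 1.12, same test, adjusted p = 0.750). Neither passed the test. The interval of miR-103-3p overlapped those of both main miR-26 strands, and that of miR-107-3p overlapped the interval of miR-26a-5p alone. miR-148a-3p had 394 and 309 reads in the cells and miR-148b-3p had 234 and 228, against 1 and 0 reads of each in the exosomes. Their calls as lower are given as a description, since both had reached the test through the cell libraries alone. miR-152-3p, with 193 and 160 reads in the cells against 2 and 3 in the exosomes, did not pass (adjusted p = 0.126 from the quasi-likelihood test).

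A wider list held 39 miRNAs from introns of protein-coding genes, the miR-26 strands left out. All 39 were in the table and 33 were tested. Of these, 15 (45.5%) were lower in the exosomes and 2 were higher, beside 29.5% and 23.7% of all tested miRNAs, and 16 did not pass. The median log2 fold change of the list was -1.82, beside -0.75 for all tested miRNAs. The higher ones were miR-139-5p, from an intron of Pde2a, with 12 and 10 reads in the cells against 11 and 5 in the exosomes, and miR-378a-3p, from an intron of Ppargc1b, at 1165 and 1034 normalized CPM in the cells against 4256 and 14717 in the exosomes. For 15 of the 39, neither exosome library exceeded 3 counts. Some of those called lower had no read in either exosome library and reached the test through the cell libraries alone. The share called lower is therefore given as a description.

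The miRNAs with the pattern most like that of each main strand were taken from those with at least 10 reads in every library, by the distance between centred log2 normalized CPM over the 4 libraries. Nearest to miR-26a-5p, among 99 candidates, were miR-700-3p (distance 0.20), miR-423-3p (0.23), miR-324-3p (0.39), miR-342-3p (0.49) and miR-345-3p (0.53). miR-700-3p had 2490 and 2348 reads in the cells against 30 and 26 in the exosomes, and miR-423-3p had 2446 and 2019 in the cells against 29 and 18 in the exosomes. Nearest to miR-26b-5p were let-7e-5p (0.36), let-7a-5p (0.48), let-7c-5p (0.49), miR-7a-2-3p (0.50) and miR-7a-1-3p (0.55). let-7e-5p, a member of the let-7 family that acts in differentiation, had 69269 and 63790 reads in the cells against 723 and 155 in the exosomes. The members themselves were not candidates, and both lists had no miRNA in common. miR-26b-5p, with 6 reads in exosome replicate 2, would not have met the rule for candidates. Counting error on the few exosome reads of both strands limits the order of both lists and what they share. With 4 libraries in 2 groups, many miRNAs with a like change between the groups lie close together in this measure.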

How the data were processed

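Small RNA of MIN6 cells and of their exosomes was polyadenylated and made into libraries with the SMARTer smRNA-Seq kit, and none of the 5 miR-26 sequences ends in an A that the added tail could mask. The authors trimmed adapters, discarded rRNA reads, and aligned the rest in turn to the genome, to miRBase v21 and to RNAcentral v10.0. The submitters' processing notes name mm10 and Bowtie, Bowtie2, STAR, RSEM, cutadapt and edgeR without versions. The authors deposited read counts per mature miRNA and per hairpin, without normalization, and RPM values, which equal each count over the sum of its library. Cell and exosome libraries were checked for quality on different instruments, so that this and the group cannot be told apart. The labels name a single RNA isolation kit for both groups, whereas the study's methods name a different kit for cells in its miRNA quantification, so that a shared kit for sequencing is not certain. In bulk RNA, fewer vesicles that hold a miRNA and less of it in each cannot be told apart.

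Groups were taken from the sample labels. Libraries of a group differed by more than sampling noise, with a chi-square over its degrees of freedom of 19.5 (cells) and 58.2 (exosomes). Exosomes were compared with cells on the deposited counts by edgeR 4.0.16 (quasi-likelihood test, TMM, filterByExpr with a minimum count of 10), with Benjamini-Hochberg adjustment over all 438 tested of 1101 miRNAs with a count. Standard errors were derived from the F statistic. Ratios within a library used 0.5 added to each count. A fold against a group at 0 was set against the mean of the levels that 3 counts reach in its libraries. Hairpins were placed by RefSeq on GRCm38.p6 and in introns by GENCODE vM21. On simulated counts with 200 of 438 miRNAs changed, a median of 44.1% of the changed miRNAs was recovered by this test, and 4.98% of its calls were false. The simulation gave cells and exosomes the same dispersion of 0.164 and drew changes in either direction alike. These rates therefore need not hold for the data, whose groups differ in spread. R 4.3.3, DESeq2 1.42.0, Python 3.11.15, statsmodels 0.14.6 and matplotlib 3.10.9 served for the analysis.

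The members and the lists were chosen with earlier results of these data known. Named miRNAs were the members, miRNAs of the same seed, the main strands of miR-103, miR-107, miR-148 and miR-152, and the 5 nearest to each main strand. miR-139-5p and miR-378a-3p were named after their values were seen, as were miR-375-3p and miR-451a as defining markers. So were miR-1a-3p and miR-133a-3p as striated-muscle markers. The alternatives were other scalings, DESeq2, the exactTest, other filters, a replicate block, the most abundant miRNAs left out, each library left out and, chosen after seeing the data, the strands from Copz introns without miR-148a-3p.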

Additional observations from a re-analysis of the deposited data

How the results depend on the processing

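The log2 difference of exosomes from cells in the ratio of miR-26 to the miR-148 and miR-152 strands, 0.69 with all 3 strands, turned to -0.023 with miR-148b-3p and miR-152-3p alone, an alternative chosen after seeing the data. The place of miR-26a-5p relative to the median of all tested miRNAs also turned, from -0.89 to 1.54 without exosome replicate 1. The log2 fold changes of both main strands stayed below 0 in each analysis that gave them. Both the scaling and the filter moved them. With library size alone none (0) of the 5 members was called lower by edgeR's quasi-likelihood test and 3 by the exactTest rule of the study, against 5 by each with TMM, and the log2 fold changes were -0.34 for miR-26a-5p and -1.26 for miR-26b-5p. Over all tested miRNAs that test called 129 lower and 104 higher with TMM, 30 and 137 with library size alone, and 95 and 129 with upper quartile scaling, so that 44.6%, 82.0% and 57.6% of the calls were higher. The exactTest rule called 166 lower with TMM and 79 with library size alone. With upper quartile scaling miR-26a-5p was at -0.91 and no longer passed the quasi-likelihood test. The exactTest rule then called 4 of the 5 members lower, beside 118 lower and 137 higher among all 438 tested miRNAs. Requiring 10 counts in all 4 libraries tested 100 miRNAs and 1 member, miR-26a-5p, which was called lower by each test, with 40 lower calls in all, and without a filter 202 were lower by the quasi-likelihood test, with miR-26a-5p at -2.95 and miR-26b-5p at -3.90. DESeq2, RLE and leaving out the most abundant miRNAs kept the calls of both main strands.

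With single libraries left out, from 0 to 5 members were called lower by the quasi-likelihood test and from 1 to 5 by the exactTest rule, with log2 fold changes of -2.26 to -0.99 for miR-26a-5p and of -3.37 to -2.23 for miR-26b-5p. Without a cell library 238 or 239 miRNAs and 2 members were tested, with 70 (29.4%) and 56 (23.4%) lower calls by the quasi-likelihood test and 87 (36.6%) and 84 (35.1%) by the exactTest rule. All 5 members were tested without exosome replicate 1, with 2 and 4 of them lower beside 27.6% and 32.9% of all tested, and without exosome replicate 2, with 5 and 5 lower beside 32.8% and 34.0%. In such fits a lone library is assumed to vary like the other group. The replicate numbers are not tied to a shared culture by the labels, and the deviations of equal numbers had a correlation of 0.19 over 438 miRNAs. With the number as a block, miR-26a-5p was at -1.65 (adjusted p = 0.115 from the quasi-likelihood test), 109 miRNAs were lower and 117 higher, and the calls of the other 4 members did not change. The share of hairpin reads on neither strand in the exosomes was 10.5% over the 3 hairpins, as the mean of 4.11% in replicate 1 and 17.0% in replicate 2, so that either library alone moves it by over 1.5 times, and 0% for mir-26b alone. Its totals list miR-26a-5p reads at both mir-26a hairpins, by a rule that is not stated. The depth of the exosome libraries, 45 and 25 reads on the family, limits every ratio given.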
